A study of Homo sapiens and Mus musculus with 33 samples.

Results

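The 10 genes described here are targets of canonical Wnt signalling or act in its feedback: LGR5, AXIN2, ASCL2, MYC, RNF43, ZNRF3, NKD1, SP5, TCF7L2 and LEF1. They were taken by gene name, and all 10 were listed among the 35805 genes of the human RNA table and among the 25965 genes of the mouse RNA table. Every ChIP-seq peak within the deposited gene interval or up to 2 kb from it was assigned to the gene. This gave 31 of 40266 peaks of H3K18 crotonylation (H3K18cr) and H3K18 acetylation (H3K18ac) in human cells, 40 of 30338 H3K18cr peaks in mouse colon and 22 of 27035 H3K4me3 peaks in mouse colon. Several peaks on 1 gene share their gene and were not treated as replicates.

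The samples were colon epithelial cells of male C57BL/6 mice that had received no treatment, and HCT116 cells, a human colon cancer epithelial line. Colon was profiled by poly(A) RNA-seq (3 mice), H3K4me3 ChIP-seq (3 samples with 1 input) and H3K18cr ChIP-seq (2 samples with 2 inputs). The study's methods state that the colons of 3 mice were combined for the H3K18cr ChIP, while its account of the data speaks of a pair of mice, so the 2 H3K18cr samples may not be separate animals. The age of the mice is not given in the sources used here. HCT116 cells, grown in glucose-containing DMEM with 10% FBS, received either 5 µM MS275 (entinostat), an inhibitor of class I histone deacetylases, or the vehicle DMSO for 18 h, with 4 RNA libraries, 3 H3K18cr libraries and 3 H3K18ac libraries per treatment and 1 input each. HCT116 is a single cancer line that is known for an activating change in the β-catenin gene, which both treatment groups carry, and it is not a model of normal colon cells. The 9 epithelial markers summed to between 11754.7 and 13280.1 CPM (counts scaled to a common library total) in colon and to between 3624 and 5676 CPM in HCT116. In HCT116 most of this came from KRT8, KRT18 and KRT19. LGALS4 (0 to 0.0239 CPM), VIL1 (0 to 1.28) and KRT20 (0.512 to 3.75) were nearly absent there, unlike in colon. The 4 absorptive cell markers were between 0 and 0.356 CPM in HCT116.

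In canonical Wnt signalling, a Wnt ligand bound to a Frizzled receptor and its LRP co-receptor stops the destruction complex from degrading β-catenin, which then enters the nucleus and switches on genes together with DNA-binding factors of the TCF/LEF family. Some of the genes that are switched on encode inhibitors of the same pathway. AXIN2 is a scaffold of the destruction complex, NKD1 binds Dishevelled, and RNF43 and ZNRF3 are membrane ubiquitin ligases that remove Frizzled receptors. In the intestine the pathway keeps the stem cells at the crypt base, which are marked by LGR5, a receptor for R-spondins, and by the transcription factor ASCL2. MYC drives proliferation, SP5 is a zinc finger factor that acts on Wnt target promoters, and TCF7L2 and LEF1 are TCF/LEF factors themselves.

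TCF/LEF factors recognise DNA with the core CTTTG, commonly extended to CTTTGAT, and promoters with and without this core are shown because the chromatin marks below were measured over them. RefSeq (GRCh38.p14) promoter windows of 300 bases, from 250 bases before to 50 bases after a gene start, were at hand for 4 of the 10 members (SP5, LEF1, TCF7L2 and RNF43). Of these, the 3 whose RefSeq start is 3 to 61 bp from the deposited gene start and that lie under a peak in HCT116 are printed 5′ to 3′ on the gene's strand. Capitals mark CTTTG or its reverse complement CAAAG, and the extended CTTTGAT, which contains the shorter motif.
SP5, chr2:170715087-170715386 (plus strand): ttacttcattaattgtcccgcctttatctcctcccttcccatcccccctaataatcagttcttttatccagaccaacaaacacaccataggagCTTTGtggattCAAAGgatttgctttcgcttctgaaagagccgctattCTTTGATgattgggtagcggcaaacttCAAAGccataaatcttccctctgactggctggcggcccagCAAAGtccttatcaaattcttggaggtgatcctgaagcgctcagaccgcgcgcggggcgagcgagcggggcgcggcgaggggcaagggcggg
RNF43, chr17:58417485-58417784 (minus strand): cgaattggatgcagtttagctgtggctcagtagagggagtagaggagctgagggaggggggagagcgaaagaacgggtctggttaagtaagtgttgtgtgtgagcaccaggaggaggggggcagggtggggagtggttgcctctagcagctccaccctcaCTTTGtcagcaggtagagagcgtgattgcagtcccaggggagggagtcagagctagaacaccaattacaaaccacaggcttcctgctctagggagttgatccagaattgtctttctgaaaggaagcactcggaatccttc
TCF7L2, chr10:112949997-112950296 (plus strand): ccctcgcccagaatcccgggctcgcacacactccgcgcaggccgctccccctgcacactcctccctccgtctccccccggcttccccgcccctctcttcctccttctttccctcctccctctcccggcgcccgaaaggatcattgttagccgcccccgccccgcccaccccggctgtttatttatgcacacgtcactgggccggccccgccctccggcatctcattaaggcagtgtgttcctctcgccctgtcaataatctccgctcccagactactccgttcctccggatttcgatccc
The SP5 window held the core 5 times, of which 1 was CTTTGAT. The RNF43 window held it once and the TCF7L2 window did not hold it. Windows at starts farther inside the genes did: those 176383 and 179021 bp from the deposited TCF7L2 start held the core 3 times and once, and that 14874 bp from the RNF43 start held it once. Of all 35116 promoter windows in the table, 47.5% held CTTTG and 2.62% held CTTTGAT on either strand, so the short core alone is common. A match is a run of letters and says nothing of binding.

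In mouse colon, 9 of the 10 genes were expressed in every sample, and Lef1 was at the edge of detection. Levels are given as CPM divided by the merged exon length in kb, so that genes can be compared within a table. The level of Myc was the highest, at 24.6, 24.8 and 24.8 CPM per kb. Axin2 measured 16.5, 20.7 and 16.7 CPM per kb and Ascl2 measured 18.1, 18.4 and 15.2, and the ranges of these 2 genes overlapped. The feedback ligase genes were lower, with Rnf43 at 10.6 ± 1.06 and Znrf3 at 3.70 ± 0.566 CPM per kb (mean ± SD, n = 3), and Tcf7l2 lay between them at 6.62 ± 0.149. The stem cell receptor Lgr5 was at 2.35, 2.12 and 1.65 CPM per kb, which overlapped the range of Sp5 (1.52, 1.82 and 1.42). Nkd1 was at 0.829 ± 0.243 CPM per kb, with 27, 54 and 29 counts. Lef1 had 0, 7 and 5 counts and thereby 0.0443 ± 0.0392 CPM per kb. Lef1 is also a gene of T cells, and all 5 T cell markers had counts in colon, with a sum of 14.8 to 31.7 CPM. Their part in the Lef1 counts was not tested. In bulk RNA, fewer cells that express a gene and less RNA per cell cannot be told apart.

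In HCT116 cells given DMSO, the same genes took another order, and the 2 genes that mark crypt base stem cells were not detected. MYC was at 63.6, 80.7, 42.0 and 80.0 CPM per kb and TCF7L2 at 22.6, 23.4, 16.3 and 27.8, followed by RNF43 at 7.28 ± 1.68 (mean ± SD, n = 4). ZNRF3 (3.61 ± 0.956) overlapped AXIN2 (2.15 ± 0.448), and SP5 (0.548 ± 0.193) overlapped NKD1 (0.451 ± 0.135). LGR5 and ASCL2 had 0 counts in all 4 DMSO libraries. The 3 counts that a count of 0 allows correspond to at most 0.0826 CPM in these libraries, a limit that covers counting error only. LEF1 had 12 counts in replicate 3 and 0 in the other 3 libraries. Under MS275, LGR5 had 0, 11, 0 and 3 counts, and ASCL2 and LEF1 had 0 in all 4 libraries. The human and mouse tables were made separately, so the levels stand side by side without a test. By rank among the members, Axin2 and Ascl2 were the second and the third in colon, whereas AXIN2 was the fifth and ASCL2 was without counts in HCT116.

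**Figure D1:**
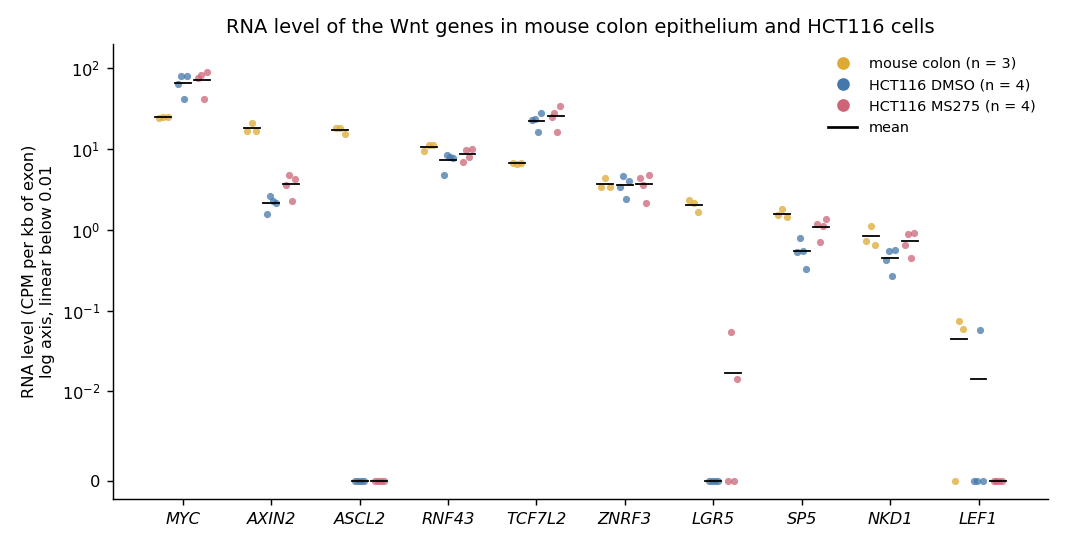
RNA level of the 10 genes in CPM per kb of exon (log axis, linear below 0.01) for each library of mouse colon, HCT116 with DMSO and HCT116 with MS275, with a line at the group mean. LGR5 and ASCL2 lie at 0 in all DMSO libraries of HCT116 but at 1.65 CPM per kb or more in every colon library, and LEF1 is near 0 throughout.

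Other parts of the pathway in colon were read from a list of 92 further Wnt pathway genes. The nuclear effector Ctnnb1, which encodes β-catenin, was at 211 CPM per kb. Among further target genes, Cdx1 (295 CPM per kb), Sox9 (62.4) and Ccnd1 (41.3) were the highest, all above the 10 members. Of the receptors, the R-spondin receptor Lgr4 was the highest at 32.0 CPM per kb, ahead of the co-receptor Lrp5 (27.8) and Fzd5 (19.7), so that Lgr4 stood above Lgr5. Wnt ligands were scarce in the epithelium, with Wnt5a the highest at 1.05 CPM per kb, and so were R-spondins, with Rspo1 the highest at 0.140.

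H3K4me3, the mark of active and poised promoters, and H3K18cr, a crotonyl group on histone H3 that the study examined at gene starts, were then compared at the members in colon. All 10 genes had an H3K4me3 peak within 1 kb of a start, but only 6 of 10 also had an H3K18cr peak there: Axin2, Myc, Rnf43, Znrf3, Nkd1 and Tcf7l2. Among coding genes with counts in colon, 84.7% had H3K4me3 and 71.6% had H3K18cr at a start, and 18.8% of those with H3K4me3 had no H3K18cr there. Lgr5, Ascl2 and Lef1 had no H3K18cr peak anywhere, and the peak of Sp5 lay 1078 bp from its start, just outside the limit. Of genes with H3K4me3 within 1.5 times the RNA level of Lgr5, 15.5% lacked H3K18cr, and for Lef1 this share was 74.2%. Near the level of Ascl2 the share was 5.82%, and near that of Sp5 it was 18.7%. No peak means that the authors' peak finder called none, not that the mark was absent.

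The strength of each peak is given as log2 of ChIP over input, after 1 scaled read was added to both, and a peak was called enriched when this ratio was at least 1 in every replicate. For H3K4me3 at starts, the ratio in replicates 1, 2 and 3 was 2.83, 3.70 and 4.04 at Tcf7l2 and 2.78, 3.45 and 3.92 at Axin2. These were the strongest start peaks of the members. Ascl2 measured 1.68, 2.67 and 2.96 and Lgr5 measured 1.78, 2.61 and 2.76. Lef1, nearly silent in the RNA, still carried H3K4me3 ratios of 1.70, 2.10 and 2.58 at a peak that also covers a noncoding start of the gene Gm43352. Rnf43 had the weakest start peaks, with 1.17, 1.49 and 1.08 at the first and 0.88, 1.77 and 1.76 at the second. The stronger peak assigned to Rnf43 by the 2 kb limit (2.04, 2.47 and 3.05) lay outside its interval, 36754 bp from its nearest coding start, and covers a start of the neighbouring gene Supt4a. Replicate 1 gave the lowest ratio at the start peaks of 9 of the 10 members, and at the first Rnf43 peak replicate 3 did. Of the 22 member peaks, 12 were called (63.7% of all H3K4me3 peaks were), and at starts 10 of 11 were (84.2% of all peaks at coding starts).

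H3K18cr ratios were smaller and closer together. In replicates 1 and 2 they were 1.83 and 2.08 at the start of Tcf7l2, 1.72 and 2.07 at Axin2, 1.84 and 1.72 at Znrf3, 1.51 and 1.90 at Nkd1 and 1.67 and 1.64 at Myc. The peak on the first start of Rnf43 (0.93 and 1.34) was not called, and another, 904 bp from a later start of the gene (1.22 and 1.20), was. That other peak covers a noncoding start of the gene 1110028F11Rik. Axin2 and Tcf7l2 likewise had a second peak at a start, which was called at Axin2 (1.08 and 1.34) and not at Tcf7l2 (1.57 and 0.68). The Sp5 peak (1.18 and 1.38) was called. Of the 40 member peaks 26 were called (61.2% of all H3K18cr peaks), and at starts 7 of 9 were (78.5% of all peaks at coding starts), so the shares of the members were near those of all peaks. At a ratio of 1.5 the count was 5 of 40 (14.7% of all peaks). Tcf7l2 held 16 peaks and Rnf43 held 13, most of them away from starts. The median ratio was 1.66 for the 9 member peaks at starts and 1.26 for the other 31. With 2 replicates and ratios to input, no test was made.

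**Figure D2:**
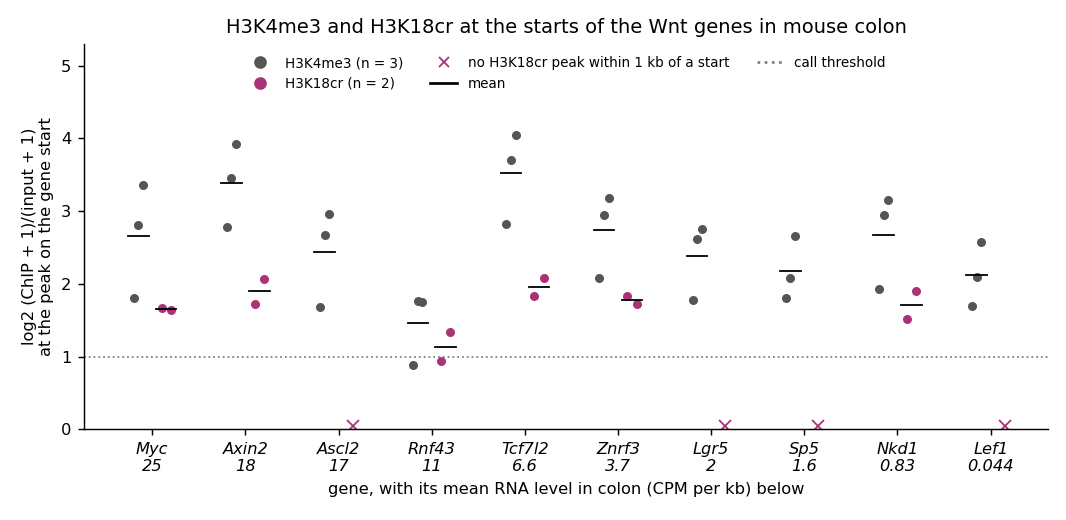
Log2 of ChIP over input at the start peak of each gene in mouse colon, for H3K4me3 (grey, 3 samples) and H3K18cr (pink, 2 samples), ordered by mean RNA level, with lines at the mean and a dotted line at the call threshold of 1; for Rnf43 the stronger of the 2 H3K4me3 start peaks is drawn. All 10 genes have H3K4me3, and crosses at the axis show that Ascl2, Lgr5, Sp5 and Lef1 have no H3K18cr peak within 1 kb of a start.

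Whether inhibition of class I histone deacetylases changed the RNA of these genes was asked in HCT116. The 2 intracellular feedback genes AXIN2 and NKD1 were higher with MS275 in each of the 4 replicate pairs, and the other tested members changed less or less evenly. LGR5, ASCL2 and LEF1 were below the count filter, which left 7 of 10 members. Values below are CPM after TMM scaling of the library sizes. AXIN2 measured 8.14, 13.0, 13.2 and 10.6 CPM with DMSO and 17.8, 23.8, 13.3 and 20.5 CPM with MS275. The groups did not overlap, a pattern with MS275 above DMSO that 3.48% of all tested genes showed, but the lowest MS275 value and the highest DMSO value, both from replicate 3, were nearly equal. The log2 fold change of AXIN2 was 0.75 (SE 0.25), with an adjusted p of 0.505 in edgeR's quasi-likelihood test without regard to replicate number and of 0.0184 with the replicate number as a block. NKD1 measured 7.38, 8.93, 5.32 and 9.34 CPM with DMSO and 10.7, 14.7, 8.70 and 14.8 CPM with MS275, so that the groups overlapped while the difference within each pair was steady, at 0.54, 0.72, 0.71 and 0.66 on the log2 scale. Its log2 fold change was 0.66 (SE 0.27), with an adjusted p of 0.690 without the block and of 0.0230 with it.

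Without the block, 0 of the 7 members and 1 of 14961 genes (0.00668%) passed an adjusted p of 0.05 in edgeR. An unadjusted p under 0.05 was found for 2 members and for 987 of the 14961 genes. DESeq2 without the block called 0 members as well, but 140 of all genes. With the block, 2 of 7 members were called, both higher, beside 14.4% of all genes (7.83% higher and 6.55% lower). These calls rest on the pairing by replicate number, and 3 of the 4 MS275 libraries correlated best with the DMSO library of their own number, while MS275 replicate 2 did so with DMSO replicate 4 (0.219 against 0.151). When pair 1, 2 or 4 was left out, 0 members were called, whereas without pair 3 both calls remained (edgeR adjusted p 0.00140 for AXIN2 and 0.0239 for NKD1) and RNF43 joined them. Both replicate 3 libraries had the lowest TMM factors, 0.886 and 0.881 against 0.998 to 1.06 in the others. A direction in all 4 pairs was itself frequent, with 19.2% of all genes higher in each pair. The 6 stromal markers, of which COL1A1 and ACTA2 gave most counts, summed to between 8.50 and 10.4 CPM with DMSO and to between 17.5 and 20.3 CPM with MS275, and their part in these results was not tested.

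RNF43 measured 30.4, 51.1, 56.7 and 47.4 CPM with DMSO and 41.7, 59.3, 57.7 and 59.3 CPM with MS275, higher in 4 of 4 pairs. With the block its log2 fold change was 0.25 (SE 0.10) and the adjusted p was 0.0997, or 0.0401 without replicate 3. The interval of RNF43 overlaps the antisense gene BZRAP1-AS1, and whether counting used strand is not stated in the sources used here. For the related ligase ZNRF3, the log2 fold change was 0.00 with the block, from 23.4, 30.8, 19.1 and 26.8 CPM with DMSO and 29.1, 23.8, 17.0 and 31.3 CPM with MS275. ZNRF3 therefore had no common direction, with 2 pairs higher and 2 lower.

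SP5 had few counts, 36 to 114 per library. It measured 1.09, 1.56, 1.27 and 0.643 CPM with DMSO and 2.37, 1.40, 2.64 and 2.64 CPM with MS275, higher in 3 of 4 pairs. Its log2 fold change of 0.99 (SE 0.51) was the largest of the members and did not pass the test (edgeR adjusted p 0.808, or 0.297 with the block). MYC was close in both groups, with 389, 466, 290 and 466 CPM against 447, 481, 292 and 515, and a log2 fold change of 0.10 (SE 0.06) with the block (edgeR adjusted p 0.282). TCF7L2 measured 152, 149, 124 and 179 CPM with DMSO and 162, 178, 123 and 214 CPM with MS275, with a blocked log2 fold change of 0.15 (edgeR adjusted p 0.189). The median log2 fold change of the 7 members was 0.23, or 0.25 with the block, where that of all genes was 0.01 in both.

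**Figure D3:**
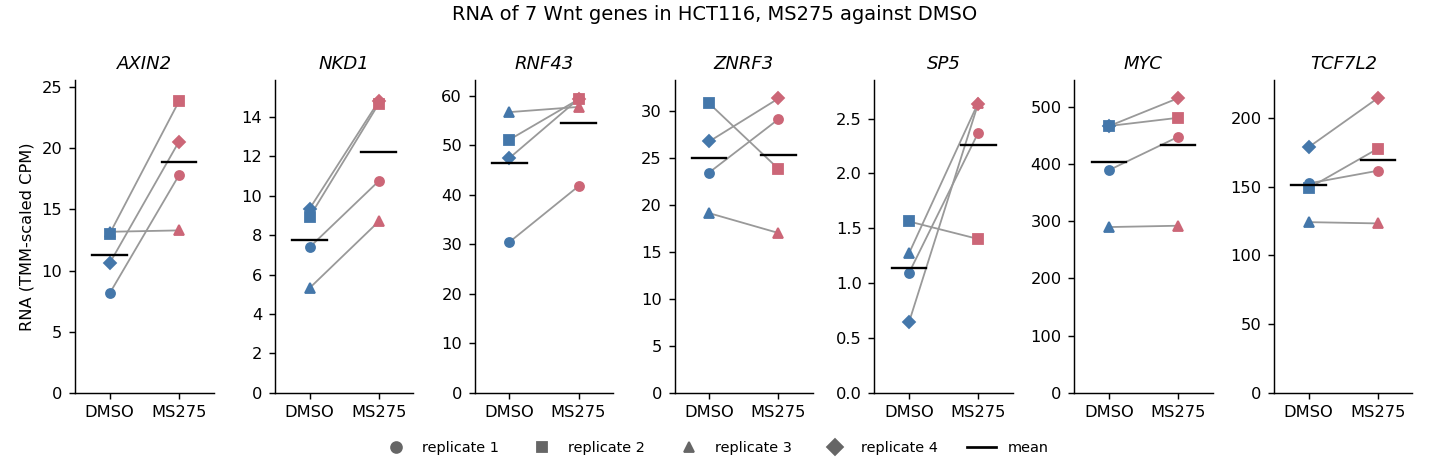
TMM-scaled CPM of the 7 tested genes in HCT116, with 1 symbol per replicate number, lines joining the DMSO and MS275 libraries of the same number, and a bar at each mean (4 libraries per group). The lines of AXIN2, NKD1, RNF43 and MYC rise in all 4 pairs, that of AXIN2 replicate 3 by 0.01 on the log2 scale, whereas those of ZNRF3 run in both directions.

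Of the 92 further pathway genes, 67 were tested, and 0 passed without the block. With the block 20 were higher and 3 lower, which is 34.3% of those tested beside 14.4% of all genes, and the median log2 fold change was 0.33. By role, 6 of 15 receptors and co-receptors, 4 of 7 further target genes, 3 of 11 nuclear effectors, 2 of 13 Wnt ligands, 2 of 4 inhibitors and 1 of 2 secretion genes were higher, and none of these was lower. Among the 13 cytoplasmic transducers 2 were higher and 3 lower. The blocked log2 fold changes below come from edgeR. The ligand WNT7B rose by 1.07 (SE 0.12, adjusted p 0.000202) and the Eph receptor genes EPHB2 and EPHB3, which are known Wnt targets in crypts, rose by 0.79 (adjusted p 0.000344) and 0.78 (adjusted p 0.00575). SOX9, a transcription factor of crypt progenitors, rose by 0.52 (adjusted p 0.000646), and the secreted inhibitor DKK1 by 0.33 (adjusted p 0.00254). Of the receptor genes, LRP6 rose by 0.44, FZD3 by 0.62 and LGR4 by 0.81 (adjusted p 0.00614, 0.00635 and 0.0121). The corepressor genes TLE1 and TLE3 rose by 0.59 and 0.43, and TCF7, a TCF/LEF factor like TCF7L2 and LEF1, rose by 0.46 (adjusted p 0.0103). GSK3A, a kinase of the destruction complex, fell by 0.48 (adjusted p 0.00481).

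The genes whose RNA followed AXIN2 most closely over the 8 HCT116 libraries were RGAG4 (Pearson's r 0.981), ACVR1C (0.966), CA8 (0.963), SGK223 (0.949) and STPG1 (0.942), of 14961 genes. Among the members, NKD1 was the nearest (0.735, rank 529), followed by RNF43 (0.668) and SP5 (0.552), and ZNRF3 was the farthest (0.250). These values describe 8 libraries that share the treatment and their depth.

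In HCT116, H3K18cr and H3K18ac were read over 1 common set of peaks. Peaks were found at 9 of the 10 members and at the starts of 8, beside 75.1% of coding genes with counts in HCT116. LGR5 had none at all, and LEF1 had 1 weak peak inside the gene but none at a start. ASCL2, for which no RNA was counted, had a peak within the 1 kb limit that did not cover a start. It lay 788 bp from the annotated start and 1152 bp from the deposited one. Of coding genes with counts in some HCT116 library but at most 3 in each DMSO library, 11.7% had a start peak, and of the others 80.7% did. ASCL2, without a count in any HCT116 library, is in neither set. Several peaks were very wide, where the median of all peaks was 1950 bp. The peak over the start of RNF43 spanned 50850 bp, that of TCF7L2 34200 bp, that of MYC 26700 bp and that of AXIN2 14550 bp. A further TCF7L2 peak, inside the gene and away from its starts, spanned 85950 bp. ZNRF3 held 16 separate peaks. The peak at the start of SP5 also covers the long noncoding gene LINC01124, and that of MYC covers CASC11.

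With MS275, both marks took a smaller share of their library's reads at the start of ZNRF3. Scaled reads show how a mark is spread over the genome, not its amount. The study reported more H3K18cr in HCT116 cells with MS275 by western blot, and by ChIP-qPCR at the promoters it examined. A lower value at a gene start was common: of all peaks within 1 kb of a coding start, 55.3% were called lower for H3K18cr and 43.3% for H3K18ac (limma), with median log2 fold changes of -0.54 and -0.60, and of the 10 start peaks of the Wnt genes 2 and 1 were. At the ZNRF3 start peak (chr22:28881901-28885200, GRCh38) H3K18cr was 265, 263 and 203 scaled reads with DMSO and 171, 133 and 189 with MS275. H3K18ac there was 205, 262 and 373 with DMSO and 179, 132 and 133 with MS275. The groups did not overlap in either mark. The log2 fold change was -0.57 (SE 0.17) for H3K18cr and -0.89 (SE 0.25) for H3K18ac, with adjusted p of 0.0142 and 0.00592 in limma. The H3K18cr call was lost without DMSO replicate 1 or 2 or MS275 replicate 2 (limma adjusted p 0.0733, 0.0895 and 0.156), and the H3K18ac call was lost without DMSO replicate 2, MS275 replicate 2 or MS275 replicate 3 (limma adjusted p 0.0582, 0.120 and 0.106). The H3K18ac call held with TMM scaling (edgeR adjusted p 0.000229), and the H3K18cr call did not (0.128). Blocking on replicate number ended the H3K18ac call (limma adjusted p 0.135) and kept that of H3K18cr (0.00340). The ZNRF3 RNA had no common direction, as given above.

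At the start of TCF7L2 (chr10:112937401-112971600), H3K18cr was 3474, 3259 and 2642 scaled reads with DMSO and 2227, 2144 and 2322 with MS275, again without overlap. Its log2 fold change was -0.48 (SE 0.15, limma adjusted p 0.0154). This call held without replicate 3 of either group and was lost when any of the other 4 libraries was left out (limma adjusted p 0.0895 to 0.154). Blocking on replicate number ended it as well (limma adjusted p 0.0602). With TMM scaling the adjusted p was 0.0951 in edgeR. H3K18ac at this peak was 2392, 2749 and 4032 with DMSO and 2377, 1960 and 1900 with MS275, a log2 fold change of -0.53 (SE 0.22) that did not pass (limma adjusted p 0.0758) but did with TMM scaling (edgeR adjusted p 0.0194). The third H3K18cr call was an 11100 bp peak inside ZNRF3 (chr22:29027251-29038350), with 644, 626 and 755 scaled reads against 433, 435 and 595 and a log2 fold change of -0.48 (SE 0.16, limma adjusted p 0.0228), a call that was lost without MS275 replicate 1 or 2 (limma adjusted p 0.169 and 0.155) and with TMM scaling (edgeR adjusted p 0.250). H3K18ac there was 645, 744 and 770 against 562, 488 and 458, a log2 fold change of -0.52 (limma adjusted p 0.142).

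In all, 3 of the 30 tested member peaks were called for H3K18cr, all lower (23.4% of all peaks were called lower and 0.236% higher), and 1 of 30 for H3K18ac, also lower (16.6% lower and 0.261% higher). Libraries with MS275 lay wholly below those with DMSO at 6 member peaks for H3K18cr (30.3% of all peaks) and at 4 for H3K18ac (23.4%). They lay wholly above at 3 for H3K18cr (3.1%) and at 2 for H3K18ac (3.27%).

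These values depend on the scaling, because the authors scaled each library to its total reads. By that scaling the median log2 fold change over all peaks was -0.20 for H3K18cr and -0.19 for H3K18ac, and with TMM scaling over peaks it was 0.04 and 0.06. All peaks were called 93 times higher and 9228 times lower for H3K18cr by the authors' scaling, and 918 times higher and 4547 times lower with TMM. For H3K18ac the counts were 103 higher and 6549 lower by the authors' scaling, and 1904 higher and 6649 lower with TMM. With TMM scaling 6 member peaks were called for H3K18cr, all higher (2.33% of all peaks were higher and 11.5% lower), and none of the 3 above. For H3K18ac, TMM called 5 member peaks higher and 2 lower (4.82% and 16.8% of all peaks). DESeq2, with its own size factors, called 3 member peaks higher for H3K18cr (0.322% of all peaks higher and 8.27% lower) and 3 higher and 1 lower for H3K18ac (0.955% and 13.2%). With the replicate block and the authors' scaling, 2 member peaks were lower for H3K18cr (26.6% of all peaks lower and 0.505% higher) and 0 of 30 were called for H3K18ac in limma (2.24% lower and 0.0253% higher). In each mark 10 of the 30 member peaks had fold changes of opposite sign by the authors' scaling and with TMM, so changes are also given relative to the median of all peaks.

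Relative to that median, the start of ZNRF3 was at -0.37 for H3K18cr and -0.70 for H3K18ac by the authors' scaling. The start of TCF7L2 was at -0.27 and -0.34, and the inner ZNRF3 peak at -0.28 and -0.33. Most member peaks lay on the other side: 24 of 30 were above the median of all peaks for H3K18cr and 23 of 30 for H3K18ac. ZNRF3 alone gave 14 of the 24 and 13 of the 23, so that the other genes had 10 of 14 peaks above it in each mark. The median log2 fold change of the member peaks was 0.02 for H3K18cr and -0.00 for H3K18ac. At the 10 member peaks on starts it was -0.14 and -0.04, where all peaks at coding starts had -0.54 and -0.60.

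AXIN2, whose RNA was higher in every pair, had H3K18cr of 784, 753 and 568 scaled reads with DMSO and 761, 745 and 721 with MS275, a log2 fold change of 0.10 (0.30 above the median of all peaks), and -0.05 for H3K18ac. The wide start peak of RNF43 changed by 0.07 in both marks, 0.27 and 0.26 above the median of all peaks. The start peak of NKD1 had -0.10 for H3K18cr and 0.19 for H3K18ac. None of these 3 start peaks passed the test by the authors' scaling, and with TMM scaling AXIN2 and RNF43 were called higher for H3K18cr and RNF43 for H3K18ac.

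**Figure D4:**
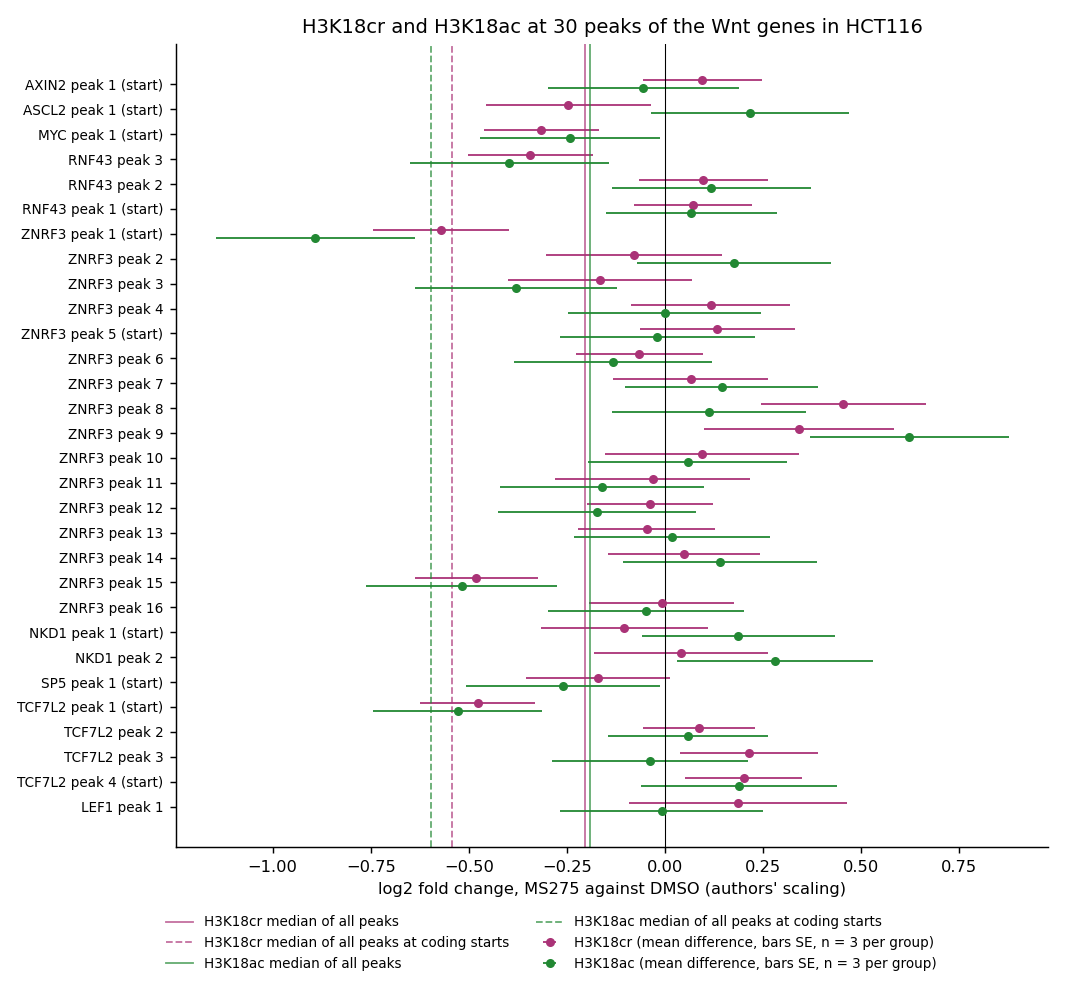
Log2 fold change with MS275 against DMSO (points, with SE bars, 3 libraries per group) at the 30 tested peaks for H3K18cr (pink) and H3K18ac (green), by the authors' scaling. Solid vertical lines mark the median of all peaks and dashed lines that of all peaks at coding starts. Most points lie to the right of the solid lines. ZNRF3 peaks 1 and 15, TCF7L2 peak 1, MYC peak 1 and RNF43 peak 3 lie to their left in both marks.

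The start peaks of MYC, SP5 and ASCL2 did not pass the test in either mark. MYC measured 1860, 1770 and 1456 scaled reads with DMSO and 1298, 1338 and 1434 with MS275 for H3K18cr, without overlap, and its log2 fold change of -0.31 did not pass (limma adjusted p 0.127). SP5 had -0.17 for H3K18cr and -0.26 for H3K18ac, and ASCL2 had -0.25 and 0.22. The third RNF43 peak also covers a start of the neighbouring gene SUPT4H1. Its log2 fold change was -0.34 for H3K18cr, without overlap of the groups, and -0.40 for H3K18ac. Neither passed (limma adjusted p 0.124 and 0.336). The single LEF1 peak was weak, with 24, 23 and 54 scaled reads of H3K18cr with DMSO.

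Within a gene the peaks did not move together. At TCF7L2, the start peak took a smaller share of the H3K18cr reads with MS275. The 85950 bp peak inside the gene had 0.09 for H3K18cr and 0.06 for H3K18ac. The peak over a later start had 0.20 and 0.19. For H3K18cr at that later peak, 419, 414 and 379 scaled reads with DMSO lay below 457, 459 and 476 with MS275. At ZNRF3, the 14 peaks other than the called pair had H3K18cr values between -0.16 and 0.46 and H3K18ac values between -0.38 and 0.62. All 14 lay above the median of all peaks for H3K18cr, and 13 did for H3K18ac.

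**Figure D5:**
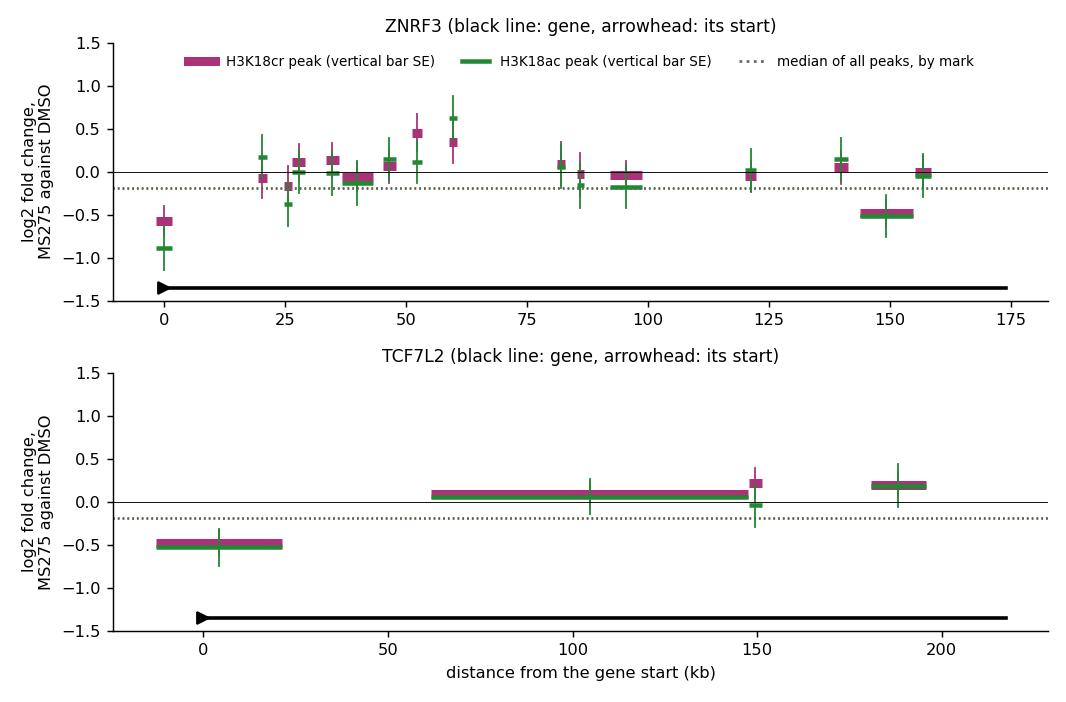
Peaks along ZNRF3 and TCF7L2, drawn to scale by distance from the gene start in kb, each at its log2 fold change with MS275 for H3K18cr (pink) and H3K18ac (green), with SE as vertical bars, the gene as a black line and the median of all peaks dotted. The start peak of each gene lies below the dotted lines in both marks, and apart from ZNRF3 peak 15 and, for H3K18ac, ZNRF3 peak 3, the peaks farther inside lie above them.

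The 2 marks were compared directly by the difference between their responses to MS275. This difference ranged from -0.46 to 0.34 on the log2 scale over the 30 member peaks. None of them had an unadjusted p under 0.05 in limma (the smallest was 0.168), and 0 of 39898 peaks (0%) passed after adjustment, with 721 at an unadjusted p under 0.05. At this number of libraries no difference between crotonylation and acetylation was detectable at the members.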

How the data were processed

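The members and gene lists were chosen with earlier results of these data known. Reads were trimmed and mapped to GRCh38 or GRCm38. The submitters' processing notes name Trim Galore (0.4.2), TopHat2 (2.0.12) and Bowtie2 (2.2.5); the methods name HiSat2 for mouse RNA and, for ChIP-seq, a further Trim Galore version and another Bowtie2 version. RNA files hold raw read counts per gene, deposited by the authors (35608533 to 53415604 per HCT116 library, 8166406 to 10707901 per colon library). Colon ChIP files hold signal, the read counts in MACS peaks that the authors multiplied by 1 factor per library to match the largest library. The HCT116 ChIP file holds log2 values of reads scaled in the same way by the authors, from which whole reads were recovered for 100% of values (tolerance 0.02 read; 1374609 to 5730094 reads in peaks per library). Peaks were 1 list per table, so that replicates share peak borders.

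RNA was tested with edgeR 4.0.16 (R 4.3.3; filterByExpr, TMM, quasi-likelihood) and HCT116 peaks with limma 3.58.1 on the log2 values, with at least 10 reads in 3 libraries of the mark, both with Benjamini-Hochberg adjustment and a threshold of 0.05. P-values cover the spread between the samples, which are biological replicates per the study's methods for RNA; the methods name 2 replicates for HCT116 H3K18cr where the labels hold 3 per treatment, and p-values for ChIP may measure technical spread. DESeq2 1.42.0 was an alternative. Same-numbered RNA libraries deviated together in 4 of 4 pairs (correlation 0.151 to 0.460 after removal of group means), so the numbers, taken from the labels, were treated as pairs. DMSO replicate 2 and MS275 replicate 2, however, each correlated more with replicate 4 of the other group (0.239 and 0.219) than with each other (0.151). Deposited and GENCODE (v44 for human, vM21 for mouse) gene starts lay within 10 kb for 95.7% of human and 96.9% of mouse coding genes, and exon lengths came from that annotation. In data simulated on the RNA comparison, edgeR without the block recovered 188 of 200 changed genes of 14961. The simulation used the spread of the blocked fit, no replicate effects and log2 changes of 1 or 2 in either direction. In the fit without the block, every tested member changed by less. This recovery is therefore no measure of what the test could detect at the members. Named genes were all 10 members and the 12 pathway genes with the smallest adjusted p in either edgeR fit, the highest pathway genes of each role in colon and the 5 genes most like AXIN2; named peaks were those at starts, the highest of the rest and those called.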

Additional observations from a re-analysis of the deposited data

Results flagged for a closer look

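In 16 groups of 4 HCT116 RNA libraries, the extreme library was compared with the others by Dixon's ratio of gap to range, whose 95% critical value chance exceeds in about 1 of 20 groups, and 2 stood apart. RNF43 was at 41.7 TMM-scaled CPM in MS275 replicate 1, against 57.7 to 59.3 in the other 3 MS275 libraries (ratio 0.908). Its DMSO library of the same number was also the lowest of its group. LEF1 was at 0.347 CPM (12 counts) in DMSO replicate 3 and at 0 in the other 3 DMSO libraries (ratio 1). With 3 libraries at 0, any count in the remaining library gives a ratio of 1. The rate of 1 in 20 therefore does not apply to LEF1.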

How the results depend on the processing

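For RNA, the 0 member calls became 2 with the replicate block in edgeR and 2 with it in DESeq2, and the block changed no other call among the members. With the block and 1 pair left out, the count ranged from 0 to 3, and without the block but with 1 library left out it was 0. For H3K18cr, the 3 calls, all lower, became 6 with TMM scaling (all higher) and 12 with TMM and the replicate block (9 higher, 3 lower). DESeq2 also called 3, but all higher (the wide RNF43 start peak and TCF7L2 peaks 2 and 4). Leaving out 1 library gave 0 to 5 calls, with 0 without MS275 replicate 2. For H3K18ac, the 1 call became 0 with the replicate block, 7 with TMM (5 higher, 2 lower), 4 with DESeq2 (3 higher, 1 lower) and 5 with TMM and the block (4 higher, 1 lower), and ranged from 0 to 3 with 1 library left out. For TMM with the block, the share of all peaks called is not given here in either mark. Those counts therefore cannot be read as particular to the members. Same-numbered ChIP libraries were not shown to be pairs (correlation 0.0787 to 0.241 for H3K18cr and -0.207 to 0.0487 for H3K18ac); with the block 2 H3K18cr peaks were called, without the TCF7L2 start peak. In colon, 26 enriched H3K18cr peaks became 5 at a ratio of 1.5 (14.7% of all peaks). With gene interval in place of exon length, 9 of 20 level ranks were kept. The scaling moved the median of all peaks by about 0.25. In edgeR with the authors' scaling the counts were those of limma (3 lower for H3K18cr, 1 lower for H3K18ac), while TMM and DESeq2, whose medians of all peaks were close (0.04 and 0.05 for H3K18cr, 0.06 in both for H3K18ac), differed in their counts, so the counts changed with the scaling and, between TMM and DESeq2, also with the tool. These 4 calls had a negative fold change under each alternative run.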
